A study of Homo sapiens with 17 samples.

Results

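The 9 enzymes that carry carbon from acetoacetyl-CoA and mevalonate to lanosterol, the first sterol, were followed through proliferation, quiescence, oncogene-induced senescence and the transformed state at the RNA level (RNA-Seq) and at the level of translation (Ribo-Seq, the sequencing of ribosome-protected fragments). They are HMGCS1, MVK, PMVK, MVD, IDI1, FDPS, FDFT1, SQLE and LSS, and each had 1 row among the 9699 transcripts of the expression table. They were picked by gene symbol, with earlier results of these data known. HMGCS1 makes HMG-CoA, from which mevalonate is formed, and the other 8 enzymes act on mevalonate and its products.

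The pathway condenses acetyl-CoA units into mevalonate, activates mevalonate by phosphorylation, and decarboxylates it to isopentenyl diphosphate, the 5-carbon unit of all isoprenoids. Such units are joined into farnesyl diphosphate, from which carbon leaves for prenylated proteins, ubiquinone and dolichol or goes on to squalene and sterols. In animal cells its genes are classical targets of the sterol-regulated transcription factor SREBP-2 (gene SREBF2), which is released from the endoplasmic reticulum when membrane cholesterol is low. Fibroblasts take cholesterol from serum lipoproteins, so serum supply and the pathway are linked in culture.

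The cells were human BJ foreskin fibroblasts immortalized with hTERT and grown in DMEM with serum. Quiescent cells had been deprived of serum, pre-senescent and senescent cells carried hTERT and a tamoxifen-inducible RASG12V that 4-OHT-Tamoxifen had switched on 5 days (pre-senescent) or 14 days (senescent) earlier, and the cells labelled transformed carried hTERT, a knockdown of p16INK4A and 1 further knockdown, SV40 small T and a retroviral pBabe-puro-RASG12V. The 9 RNA-Seq and 8 Ribo-Seq samples had been reduced to 6 columns for each assay, 1 per condition and sequencing run, with the replicates of proliferating cells of run 1, of quiescent cells and of pre-senescent RNA combined. Quiescence and pre-senescence were compared with the proliferating cells of run 1, and senescence and the transformed state with those of run 2.

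Every value is thus 1 column, without replicate columns, and the differences have no replicate check and no test. The closest measure of spread was the gap between the proliferating columns of runs 1 and 2, which mixes run and culture. Values are FPKM (reads per kilobase of transcript, scaled to the number of mapped reads), floored at 1 and rounded. The table gives no read counts, and the read totals that the study lists per library were not used here, so no counting interval is given. No enzyme was at the floor in any column, the lowest values being 6.82 RNA FPKM and 7.70 Ribo-Seq FPKM.

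Some labels were checked first. The Ribo-Seq samples titled S and C3 carry each other's condition label, and titles were followed here. In the column named S, Ribo-Seq FPKM of the proliferation marker MKI67 was 1.00 and of the cell-cycle inhibitor CDKN1A 547.83, against 43.02 and 222.83 in the column named C3, and the RNA columns of the same names had MKI67 at 1.00 and 43.97. CDKN2A, whose row covers a locus with transcripts besides p16INK4A, had 12.64 RNA FPKM in the library labelled transformed. Proliferating cells had 17.19 in run 1 and 6.75 in run 2, values on both sides of it, so this row does not settle the knockdown label. Its Ribo-Seq FPKM in the library labelled transformed was lower than in proliferating cells of run 2, 5.51 against 8.92. CDKN1A and MDM2, also listed for checking the labels, had 80.30 against 171.63 and 13.92 against 20.52 RNA FPKM in the same pair. HRAS had 311.51 against 1283.52 RNA FPKM in the same pair, and the labels do not say which RAS gene was expressed. HRAS RNA FPKM was 2415.28 in proliferating cells of run 1, 1253.69 in quiescent, 2102.25 in pre-senescent and 2087.48 in senescent cells. Of the columns without induced RASG12V, only proliferating cells of run 1 were thus as high as pre-senescent and senescent cells. All of them were above the library labelled transformed. Whether proliferating and quiescent cells also carried a RAS construct was not tested, and RASG12V columns are named here by their labels. All 8 fibroblast markers listed had a row, with VIM between 2955.66 and 4881.25 RNA FPKM, and COL1A1 between 51.57 in senescent cells and 1328.21 in proliferating cells of run 2. Of 12 markers of other cell types only CD68, a lysosomal protein of macrophages that fibroblasts also make, had a row (38.32 to 132.25 RNA FPKM). In such bulk samples fewer cells of a type and less RNA per cell cannot be told apart.

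The promoters of 4 enzymes are shown because the quiescent RNA change separated them: HMGCS1, MVD and MVK were among the 8 enzymes with a large change, and PMVK was the exception. Each is the 250 bases before an annotated start in RefSeq (GRCh38.p14), read 5′ to 3′ on the gene's strand, at chr5:43313413-43313662 (minus strand) for HMGCS1, chr12:109573544-109573793 (plus strand) for MVK, chr16:88663092-88663341 (minus strand) for MVD and chr1:154936720-154936969 (minus strand) for PMVK. Capitals mark CCAAT on either strand (the binding motif of NF-Y, a known partner of SREBPs) and, in MVK, the SREBP motif TCACNCCA. Of 9 enzymes, 7 had a promoter in the sequence table, all but FDFT1 and SQLE.
HMGCS1: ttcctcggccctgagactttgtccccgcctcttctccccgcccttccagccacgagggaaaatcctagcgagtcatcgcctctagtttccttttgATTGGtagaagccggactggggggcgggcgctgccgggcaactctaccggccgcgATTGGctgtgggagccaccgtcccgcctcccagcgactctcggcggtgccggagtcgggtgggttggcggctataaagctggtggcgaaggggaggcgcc
MVK: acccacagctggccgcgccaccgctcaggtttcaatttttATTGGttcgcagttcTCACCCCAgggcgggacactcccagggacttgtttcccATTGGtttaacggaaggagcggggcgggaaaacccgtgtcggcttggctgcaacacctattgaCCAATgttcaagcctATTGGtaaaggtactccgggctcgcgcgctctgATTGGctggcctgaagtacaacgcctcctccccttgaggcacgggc
MVD: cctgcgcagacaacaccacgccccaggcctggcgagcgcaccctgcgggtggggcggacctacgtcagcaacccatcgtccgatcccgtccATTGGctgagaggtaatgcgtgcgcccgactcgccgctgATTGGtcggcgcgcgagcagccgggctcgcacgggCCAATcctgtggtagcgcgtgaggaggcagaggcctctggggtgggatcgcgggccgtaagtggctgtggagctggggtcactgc
PMVK: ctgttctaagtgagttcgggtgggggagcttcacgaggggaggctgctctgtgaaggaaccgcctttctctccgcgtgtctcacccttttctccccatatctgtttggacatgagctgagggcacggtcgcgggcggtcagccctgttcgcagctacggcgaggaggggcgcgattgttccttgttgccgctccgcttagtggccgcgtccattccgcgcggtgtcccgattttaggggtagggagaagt

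CCAAT was found within these 250 bases in 6 of the 7 enzymes, against 42.4% of the 7292 table genes with a promoter and 32.0% of all 35116 promoters. MVK had 5 matches, MVD 3, FDPS 3, HMGCS1 2 and LSS 1, and IDI1 had matches in 2 of its 3 annotated promoters. PMVK had none. In HMGCS1 the matches began at positions -155 and -100 from the start of the first of its 2 annotated promoters, the one shown. Its other annotated promoter had no CCAAT match. TCACNCCA, searched on both strands, was present in MVK alone of the 7 (3.95% of table genes), at -195. The E-box CACGTG was in 0 of 7 (11.6% of table genes), and the GC box GGGCGG, bound by SP1, in 7 of 7 (76.5% of table genes). These are matches of letters in a short window and say nothing of binding.

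In quiescent cells 8 of the 9 enzymes had at least 2-fold more RNA than proliferating cells of the same run, where 4.01% of all rows did. The exception was PMVK. The median log2 RNA change of the 9 enzymes was 2.36, a fold of 5.15, and the median of all rows was 0.00. At the level of translation 8 of 9 were at least 2-fold higher against 9.11% of all rows, with a median log2 change of 2.14. The other 3 conditions moved the same enzymes less, with RNA medians of 0.60 in pre-senescent cells, 0.77 in senescent cells and 0.74 in the library labelled transformed.

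**Figure D1:**
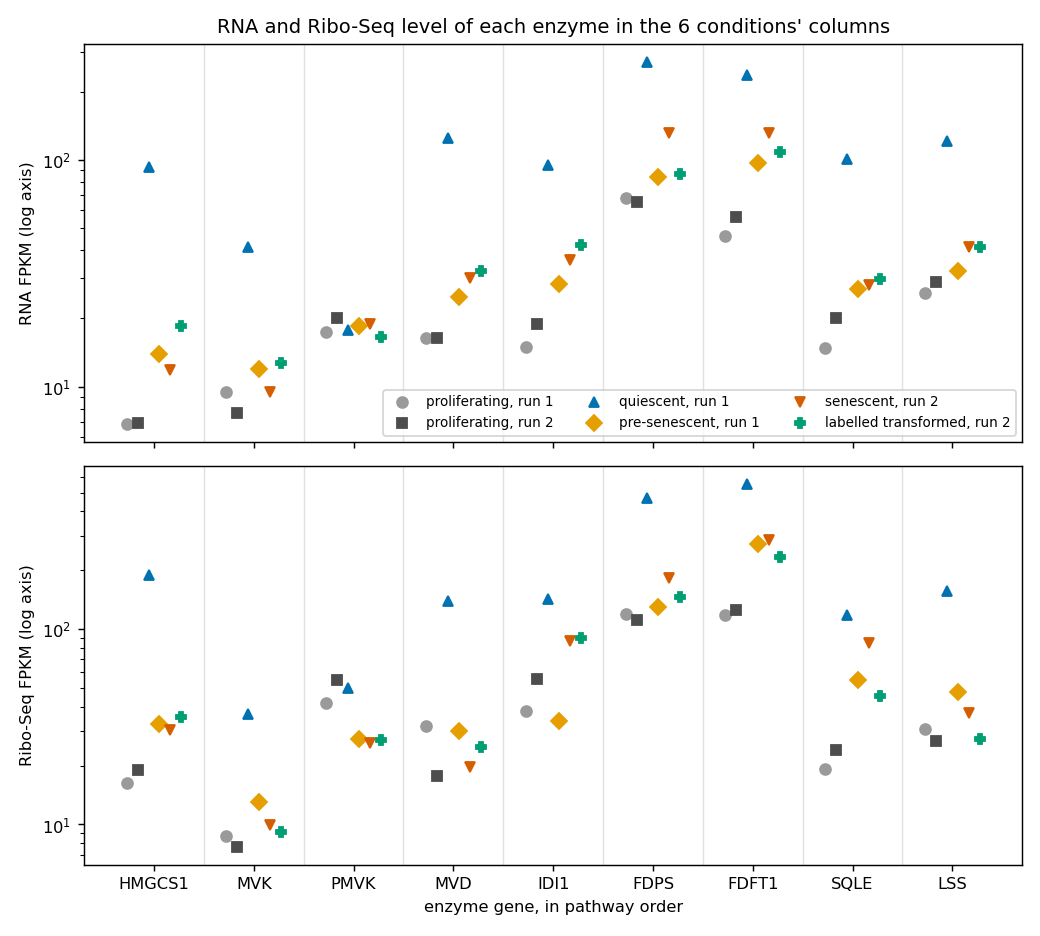
RNA level (top) and Ribo-Seq level (bottom) in FPKM on log axes for the 9 enzymes in pathway order, with 1 symbol per column of the table and no error bars because each condition is 1 column. The quiescent triangles stand above all other symbols for every enzyme except PMVK, whose RNA values lie between 16.47 and 20.00.

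HMGCS1, the cytosolic HMG-CoA synthase, had the largest quiescent change of the 9. Its RNA FPKM was 6.82 and 6.91 in proliferating cells of runs 1 and 2, 93.24 in quiescent, 13.91 in pre-senescent and 11.80 in senescent cells, and 18.55 in the library labelled transformed. Ribo-Seq FPKM in the same order was 16.24, 18.90, 188.97, 32.66, 30.48 and 35.55. The proliferating columns were the lowest in both assays and the quiescent column the highest. RNA was 13.7-fold higher in quiescence, rank 4 of all 9699 rows, and Ribo-Seq 11.6-fold. It was also 2.68-fold higher in RNA in the library labelled transformed, where its Ribo-Seq was 1.88-fold higher.

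MVK, mevalonate kinase, adds the first phosphate to mevalonate. Its RNA FPKM was 9.50 and 7.64 in the proliferating columns of runs 1 and 2, 41.32 in quiescent, 11.91 in pre-senescent and 9.43 in senescent cells, and 12.73 in the library labelled transformed. Its Ribo-Seq FPKM was 8.76, 7.70, 36.86, 13.07, 9.93 and 9.18 in that order, the lowest of the 9 enzymes in each of the 6 Ribo-Seq columns. Only the quiescent column stood well apart, 4.35-fold higher in RNA and 4.21-fold in Ribo-Seq. The senescent RNA value lay between the proliferating values of the 2 runs.

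PMVK, phosphomevalonate kinase, adds the second phosphate and behaved apart from its neighbours. Its RNA FPKM was 17.49 and 20.00 in proliferating cells, 17.70 in quiescent, 18.42 in pre-senescent and 18.95 in senescent cells, and 16.47 in the library labelled transformed. Its Ribo-Seq FPKM was 41.94 and 54.80 in proliferating cells, 49.72 in quiescent, 27.46 in pre-senescent and 26.13 in senescent cells, and 27.02 in the library labelled transformed. Thus RNA stayed within 16.47 to 20.00 in all 6 columns, and Ribo-Seq fell into a higher set of proliferating and quiescent columns and a lower set of the 3 RASG12V columns. The quiescent RNA change was 0.02 on the log2 scale, and Ribo-Seq was 0.477-fold of control in senescent cells and 0.493-fold in the library labelled transformed.

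MVD, diphosphomevalonate decarboxylase, makes isopentenyl diphosphate. RNA FPKM was 16.39 and 16.42 in proliferating cells, 125.02 in quiescent, 24.84 in pre-senescent and 30.13 in senescent cells, and 32.19 in the library labelled transformed. Ribo-Seq FPKM was 31.82 and 17.66 in proliferating cells, 139.80 in quiescent, 30.05 in pre-senescent and 19.80 in senescent cells, and 25.02 in the library labelled transformed. The proliferating columns agreed in RNA and differed 1.80-fold in Ribo-Seq, the widest such gap of the 9. RNA was 7.63-fold and Ribo-Seq 4.39-fold higher in quiescence. Against the proliferating column of the other run, the senescent Ribo-Seq change went from 0.17 to -0.68 on the log2 scale.

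IDI1, isopentenyl diphosphate isomerase, makes the allylic partner for chain growth. RNA FPKM was 14.97 and 18.96 in proliferating cells, 95.28 in quiescent, 28.21 in pre-senescent and 36.32 in senescent cells, and 42.12 in the library labelled transformed. Ribo-Seq FPKM was 38.03 and 55.84 in proliferating cells, 143.20 in quiescent, 33.87 in pre-senescent and 86.63 in senescent cells, and 90.56 in the library labelled transformed. RNA was above both proliferating columns in all 4 conditions, by 6.36-fold in quiescence and 2.22-fold in the library labelled transformed. In pre-senescent cells its RNA was 1.88-fold higher while its Ribo-Seq was 0.891-fold of control, the lowest of its 6 Ribo-Seq columns.

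FDPS, farnesyl diphosphate synthase, stands at the branch to prenylated proteins. RNA FPKM was 67.70 and 65.01 in proliferating cells, 269.79 in quiescent, 83.93 in pre-senescent and 130.95 in senescent cells, and 86.34 in the library labelled transformed. Ribo-Seq FPKM was 119.50 and 110.89 in proliferating cells, 466.39 in quiescent, 130.18 in pre-senescent and 181.67 in senescent cells, and 145.96 in the library labelled transformed. The proliferating columns were the lowest in both assays. RNA was 3.99-fold higher in quiescence and 2.01-fold in senescence. Reads were aligned to protein-coding transcripts only, so reads from processed pseudogenes, which FDPS is known to have, could have been counted here.

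FDFT1, squalene synthase, commits carbon to sterols. RNA FPKM was 46.07 and 56.26 in proliferating cells, 237.16 in quiescent, 96.43 in pre-senescent and 131.89 in senescent cells, and 108.40 in the library labelled transformed. Ribo-Seq FPKM was 117.96 and 125.00 in proliferating cells, 550.12 in quiescent, 273.22 in pre-senescent and 286.04 in senescent cells, and 233.94 in the library labelled transformed. The 4 test columns were all above both proliferating columns in both assays. Its RNA was 5.15-fold higher in quiescence, 2.09-fold in pre-senescence and 2.34-fold in senescence, and its Ribo-Seq 4.66-fold, 2.32-fold and 2.29-fold.

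SQLE, squalene epoxidase, is an oxygen-dependent and rate-limiting step of the sterol branch. RNA FPKM was 14.80 and 20.04 in proliferating cells, 100.52 in quiescent, 27.00 in pre-senescent and 28.18 in senescent cells, and 29.77 in the library labelled transformed. Ribo-Seq FPKM was 19.28 and 24.13 in proliferating cells, 117.69 in quiescent, 54.92 in pre-senescent and 84.87 in senescent cells, and 45.21 in the library labelled transformed. The 3 RASG12V columns were near each other in RNA and spread out in Ribo-Seq, with the senescent column highest among them. RNA was 6.79-fold and Ribo-Seq 6.10-fold higher in quiescence, while in senescence RNA was 1.41-fold and Ribo-Seq 3.52-fold higher.

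LSS, lanosterol synthase, closes the sterol rings. RNA FPKM was 25.79 and 28.85 in proliferating cells, 121.69 in quiescent, 32.46 in pre-senescent and 41.25 in senescent cells, and 41.15 in the library labelled transformed. Ribo-Seq FPKM was 30.72 and 26.87 in proliferating cells, 156.99 in quiescent, 47.50 in pre-senescent and 37.20 in senescent cells, and 27.33 in the library labelled transformed. RNA was above both proliferating columns throughout, and Ribo-Seq in the library labelled transformed lay between them. Quiescent RNA was 4.72-fold and Ribo-Seq 5.11-fold higher.

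The order of levels along the pathway differed in quiescence, most for PMVK. Per kilobase of transcript, proliferating cells of run 1 ranged from 6.82 RNA FPKM for HMGCS1 to 67.70 for FDPS, and PMVK was the sixth from the lowest. In quiescent cells PMVK was the lowest at 17.70 RNA FPKM, the next lowest was MVK at 41.32, and the median of the 9 went from 16.39 to 100.52 RNA FPKM. SQLE, IDI1 and MVD were near each other in RNA and changed places between the proliferating columns, so their order is not set by these data. In Ribo-Seq the same held for LSS and MVD, for IDI1 and PMVK, and for FDFT1 and FDPS. MVD also changed places with HMGCS1 and SQLE in Ribo-Seq, and SQLE with PMVK in RNA. Across the 9 enzymes, the RNA level in proliferating cells of run 2 and the quiescent log2 RNA change had a Pearson r of -0.30 (-0.59 without PMVK, n = 9 genes from libraries of the same study, a description only).

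**Figure D2:**
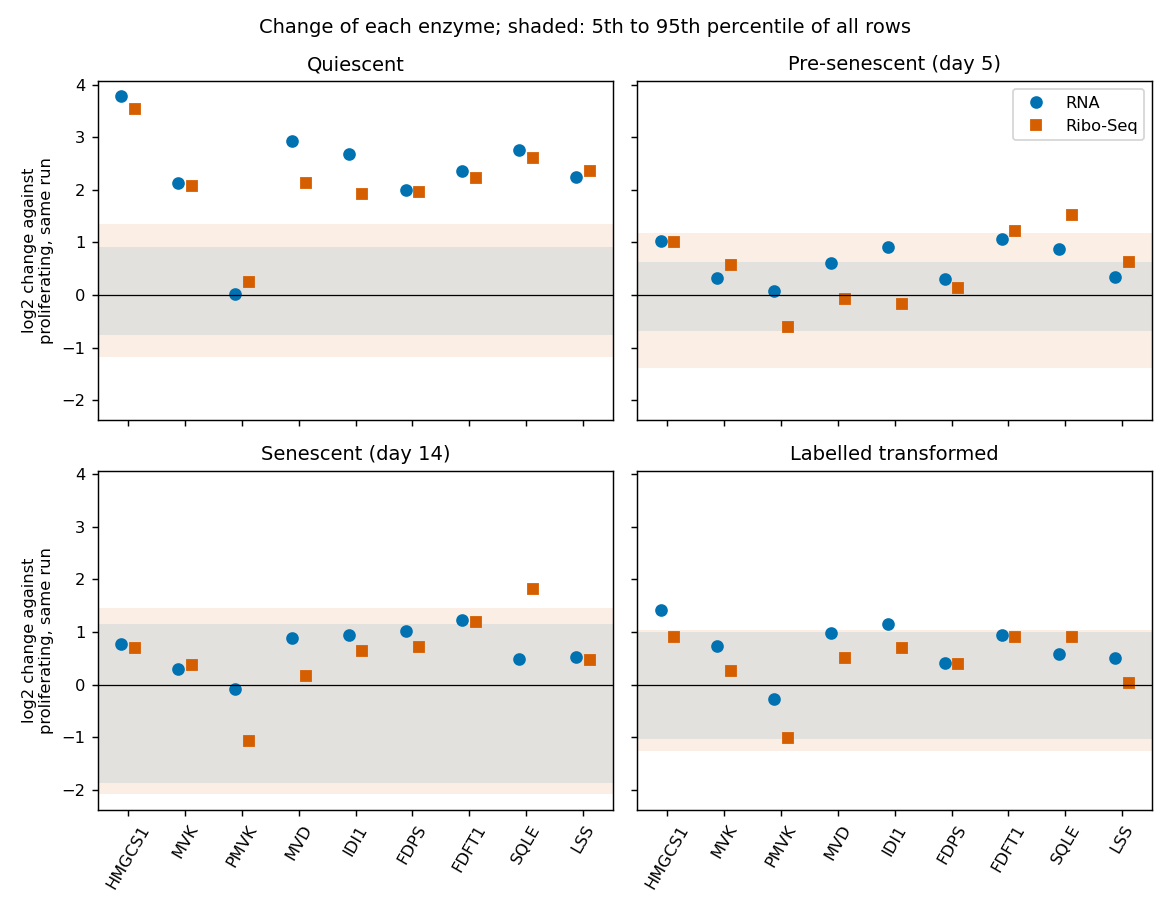
Log2 change of RNA (blue circles) and Ribo-Seq (orange squares) for the 9 enzymes in pathway order in each condition against proliferating cells of the same run. Shading runs from the 5th to the 95th percentile of all 9699 rows, grey for RNA and pale orange for the wider Ribo-Seq range. In quiescence 8 enzymes lie above both ranges and PMVK lies near 0, and in senescence SQLE has the highest Ribo-Seq change at 1.81.

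The proliferating columns of runs 1 and 2 gave the scale for these changes. None of the 9 enzymes differed 2-fold between them in RNA, Ribo-Seq or TE, where 7.83%, 18.5% and 9.69% of all rows did. The gap between them in RNA ran from -0.31 (MVK) to 0.44 (SQLE) on the log2 scale, and in Ribo-Seq from -0.85 (MVD) to 0.55 (IDI1). In quiescence 8 enzymes changed by more than the largest of these gaps in both assays. In RNA 5 did so in pre-senescence, 7 in senescence and 7 in the library labelled transformed, and in Ribo-Seq 3, 3 and 4. The Ribo-Seq counts in senescence and in the library labelled transformed include PMVK, which was lower. The share of all rows past these gaps is not given here, so the counts are a description only.

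In pre-senescent cells, 5 days after RASG12V induction, all 9 log2 RNA changes were above 0, from 0.07 (PMVK) to 1.07 (FDFT1). FDFT1 and HMGCS1, at 1.03, were past 2-fold in RNA, 2 of 9 against 1.77% of all rows. In Ribo-Seq SQLE (1.51), FDFT1 (1.21) and HMGCS1 (1.01) were past 2-fold, 3 of 9 against 7.13% of all rows. MVD, IDI1 and PMVK had Ribo-Seq changes of -0.08, -0.17 and -0.61, so 3 consecutive steps were below control in translation, MVD and IDI1 by less than the gap between their own proliferating columns.

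In senescent cells, at 14 days, log2 RNA changes ran from -0.08 (PMVK) to 1.23 (FDFT1). FDFT1 and FDPS (1.01) were past 2-fold in RNA, 2 of 9 against 7.08% of all rows. In Ribo-Seq SQLE (1.81) and FDFT1 (1.19) were at least 2-fold higher, 2 of 9 against 11.0% of all rows, and PMVK (-1.07) was at least 2-fold lower, 1 of 9 against 16.6%. These shares are closer to those of all rows than in quiescence.

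In the library labelled transformed, HMGCS1 (1.42) and IDI1 (1.15) were past 2-fold in RNA, 2 of 9 against 4.92% of all rows. MVD and FDFT1 followed at 0.97 and 0.95. No enzyme was 2-fold higher in Ribo-Seq, where 5.28% of all rows were, the highest being HMGCS1, SQLE and FDFT1 between 0.90 and 0.91. PMVK was 2-fold lower at -1.02, 1 of 9 against 7.36% of all rows. Against the proliferating column of the other run the PMVK change was -0.63, and its senescent change -0.68, neither of them 2-fold.

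Senescent cells and the library labelled transformed, both with RASG12V and both of run 2, could be set against each other directly. No enzyme differed 2-fold in RNA or Ribo-Seq, where 23.2% and 30.0% of all rows did. The widest RNA differences, senescent minus transformed, were -0.65 for HMGCS1 and 0.60 for FDPS on the log2 scale. The widest in Ribo-Seq was 0.91 for SQLE. Quiescence and the library labelled transformed, which share no control column, ordered the enzymes alike in RNA change (Pearson r = 0.92, Spearman rho = 0.83, n = 9 genes, and r = 0.80 without PMVK). For quiescence and senescence r was 0.61 and 0.05 without PMVK. In Ribo-Seq change r was 0.84 for the first pair and 0.72 for the second, and 0.45 and 0.23 without PMVK. Pre-senescence and the library labelled transformed had an r of 0.81 in RNA change, and 0.71 without PMVK. Genes of 1 pathway are not independent, and these values are descriptions.

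**Figure D3:**
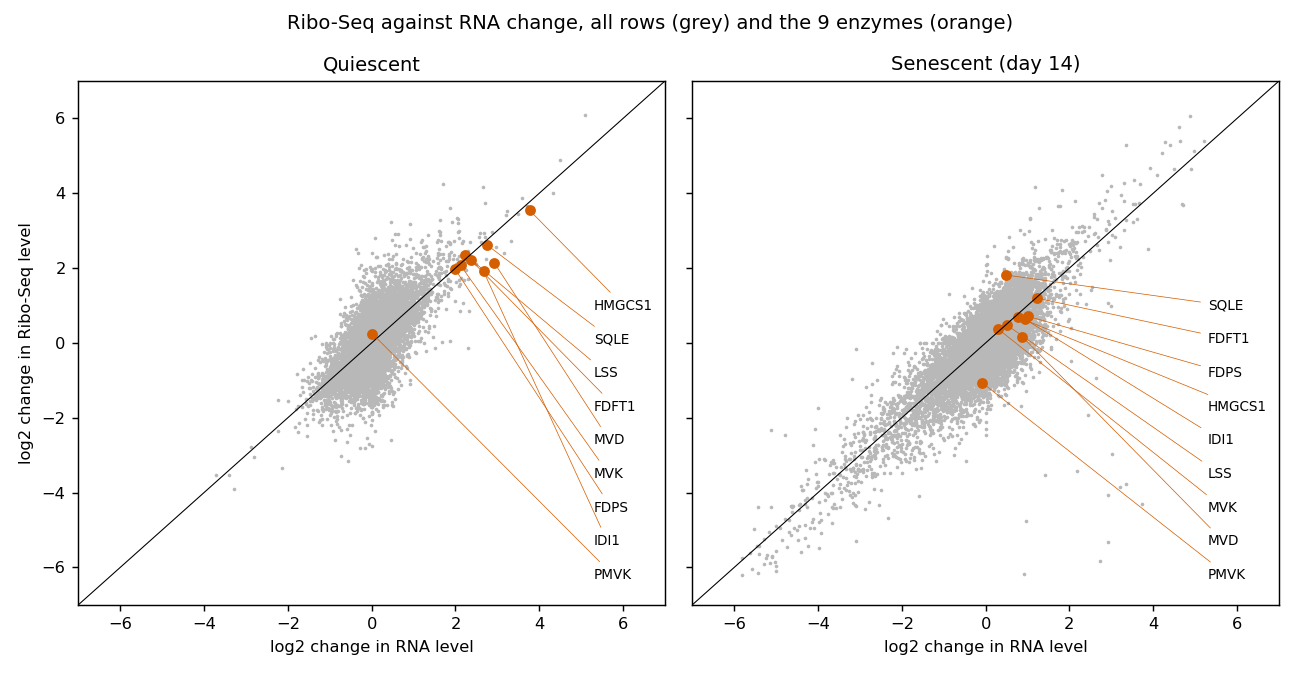
Log2 change in Ribo-Seq level against log2 change in RNA level in quiescence and senescence for all 9699 rows (grey) and the 9 enzymes (orange, named), with the line of equal change. In quiescence 8 enzymes lie far up near the line, and in senescence SQLE lies above it (RNA 0.49, Ribo-Seq 1.81) and PMVK below it (-0.08, -1.07).

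Translation efficiency (TE), the ratio of Ribo-Seq to RNA FPKM, showed how far translation departed from RNA. Since Ribo-Seq FPKM counts the coding sequence and RNA FPKM the whole transcript, only its change between columns of 1 gene is read here. In quiescence the median log2 TE change of the 9 enzymes was -0.14 against -0.05 for all rows, and no enzyme changed 2-fold, where 7.89% of all rows did. Most of the quiescent increase in ribosome footprints was thus matched by RNA. MVD (-0.80) and IDI1 (-0.76) had the lowest quiescent TE changes, below FDPS (-0.03), MVK (-0.05) and LSS (0.12). For MVD the gap between the proliferating columns was -0.85, as large as its change, and against the column of the other run its TE change was 0.06 in quiescence, -1.56 in senescence and -1.32 in the library labelled transformed.

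SQLE in senescence had the only TE change of 2-fold among the enzymes in that state, 1 of 9 against 9.43% of all rows, so the count is near the share of all rows. Its TE was 2.50-fold higher (log2 1.32), at the 99.0 percentile of all rows, while the gap between its proliferating columns was -0.11. The same quantity was 0.64 in pre-senescence, 0.33 in the library labelled transformed and -0.15 in quiescence. PMVK went the other way in the 3 RASG12V columns, with log2 TE changes of -0.69, -0.99 and -0.74, a gap of 0.19 between its proliferating columns and 0.23 in quiescence. IDI1 in pre-senescence, at -1.08, was the 1 enzyme of 9 past 2-fold there, against 14.5% of all rows, a share close to 1 in 9, and the call was lost when changes were centred on the median of all rows (-0.13). In the library labelled transformed no enzyme was past 2-fold (3.41% of all rows were), and the median was -0.47 against -0.07 for all rows, with HMGCS1, MVK, MVD, IDI1 and LSS between -0.45 and -0.51.

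**Figure D4:**
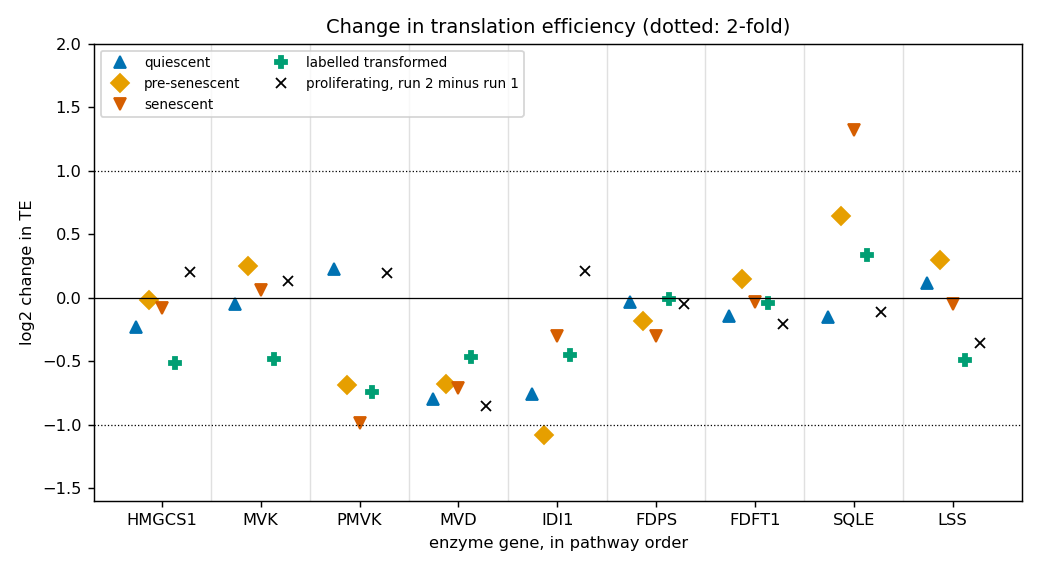
Log2 change in TE of each enzyme, in pathway order, in the 4 conditions against proliferating cells of the same run, with crosses for the gap between the proliferating columns and dotted lines at 2-fold. SQLE in senescence (1.32) and IDI1 in pre-senescence (-1.08) lie beyond the dotted lines, and the MVD cross (-0.85) is as far from 0 as its symbols.

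The steps on either side of the 9 enzymes were described from lists of textbook pathway members. Upstream, ACAT2, which joins acetyl-CoA units, had a quiescent log2 RNA change of 2.30, with 30.92 RNA FPKM in proliferating cells of run 1 and 152.44 in quiescent cells. ACAT2 in senescence was at -0.65 in RNA and -0.99 in Ribo-Seq.

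Downstream, 8 of 9 listed genes that turn lanosterol into cholesterol were at least 2-fold higher in RNA in quiescence, against 4.01% of all rows. The median log2 change of the 9 was 2.30. The largest was TM7SF2, a sterol reductase listed at the floor of 1.00 in proliferating cells of run 1 and at 20.05 in quiescence, followed by MSMO1 (3.34), DHCR7 (3.24), HSD17B7 (2.72), CYP51A1 (2.30), SC5DL (2.02), NSDHL (1.54) and EBP (1.41). LBR, a nuclear membrane protein with the same reductase activity as TM7SF2, stood at -0.22. In senescence 4 of these 9 were at least 2-fold higher in RNA and 6 in Ribo-Seq, against 7.08% and 11.0% of all rows. LBR was at -2.21 in RNA, where 13.0% of all rows were at least 2-fold lower. In the library labelled transformed none of the 9 was 2-fold higher in RNA, where 4.92% of all rows were, and their median was 0.27.

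The 14 genes with a row from the isoprenoid branches that serve purposes other than sterols did not share the quiescent change. None was 2-fold higher in RNA, where 4.01% of all rows were, so that count is near the share of all rows. Their median was -0.18, against 0.00 for all rows. PDSS1, a subunit of the enzyme that makes the ubiquinone side chain, was the 1 gene at least 2-fold lower (-1.01), where 2.37% of all rows were. GGPS1, the geranylgeranyl diphosphate synthase, was the highest at 0.53, and the farnesyltransferase subunits FNTA and FNTB were at 0.16 and 0.06.

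In quiescence 4.01% of all rows were at least 2-fold higher in RNA. Of 14 genes with a row for SREBP control and cholesterol uptake or efflux, 5 were at least that much higher. They were INSIG1 (3.72) and INSIG2 (1.05), which hold SREBPs in the endoplasmic reticulum, STARD4 (2.19), a cytosolic sterol carrier, and the SREBP genes SREBF2 (1.94) and SREBF1 (1.34). SCAP, the sterol sensor that escorts SREBPs, was at -0.11, and the proteases MBTPS1 and MBTPS2 that cut SREBPs were at 0.30 and -0.09. SREBF2 RNA FPKM was 19.54 and 25.87 in proliferating cells, 74.80 in quiescent, 25.61 in pre-senescent and 37.21 in senescent cells, and 37.50 in the library labelled transformed. ABCA1, the cholesterol exporter, was at 0.06 in quiescence and 2.07 in senescence.

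Fatty acid synthesis, which is driven mainly by SREBP-1, had all 8 of its listed genes at least 2-fold higher in RNA in quiescence. That compares with 4.01% of all rows, and the median of the 8 genes was 1.95. They were the desaturases SCD (3.59), FADS2 (2.88) and FADS1 (1.83), the acetyl-CoA suppliers ACSS2 (2.69) and ACLY (1.04), the synthase FASN (2.08), the carboxylase ACACA (1.30) and the elongase ELOVL6 (1.10). In senescence the median log2 RNA change of this list was 0.02, where the 9 enzymes had a median of 0.77. No gene of the 8 was 2-fold higher there, against 7.08% of all rows. Cell cycle genes (MKI67, CCNA2, CCNB1, CDK1, PLK1, AURKB, BUB1 and MCM2) moved in both states. All 8 were at least 2-fold lower in RNA in quiescence, from -1.57 (PLK1) to -1.14 (MCM2), and in senescence, against 2.37% and 13.0% of all rows. None of the 8 was 2-fold lower in the library labelled transformed (median 0.00). The 5th percentile of all rows was -1.04 there, so that count is near what all rows gave. The senescent median of -5.08 is a bound and may understate the change, since 3 of the 8 were at the floor of 1.00 RNA FPKM in senescent cells. Their part in the enzymes' values was not tested.

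**Figure D5:**
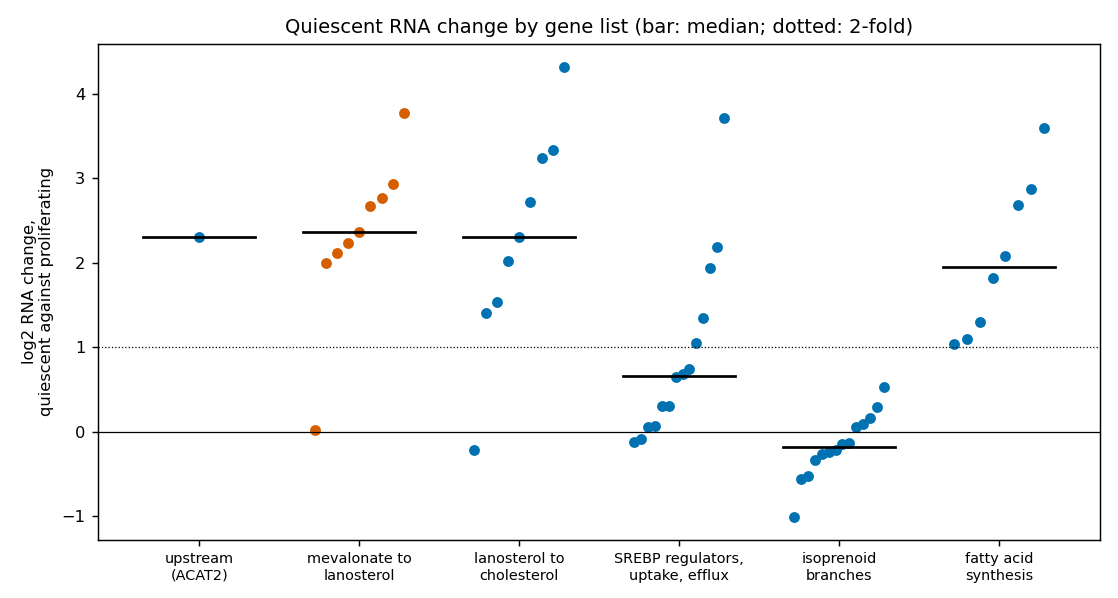
Log2 RNA change in quiescence for each gene (points) of 6 lists, the 9 enzymes in orange, with the list median as a bar and 2-fold as a dotted line. TM7SF2, the highest point of the downstream list, was computed against the floor of 1 FPKM, and the enzymes, ACAT2, the downstream steps and fatty acid synthesis lie mostly above the dotted line, while the isoprenoid branches centre on -0.18.

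Genes outside the 9 enzymes were also ranked by how close their 8 changes (RNA and Ribo-Seq in 4 conditions) came to the enzymes' median changes, by root mean square distance on the log2 scale among 7813 rows with a mean RNA FPKM of at least 5. The closest was SREBF2 at 0.26, and the 10 closest also held LPIN1 (0.31), PAMR1 (0.31), CLCN6 (0.36), SC5DL (0.42), ASS1 (0.45), CYP51A1 (0.45), NSDHL (0.45) and PCYT2 (0.46). Among the enzymes themselves the distance ran from 0.25 (MVK and LSS) to 1.49 (PMVK). Of those named, SREBF2, SC5DL, CYP51A1 and NSDHL are sterol pathway genes or their regulator, and LPIN1 and PCYT2 act in phospholipid synthesis. With Pearson correlation as the measure, 0 of the 10 were among the 10 closest, so the names depend on the measure.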

How the data were processed

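RNA-Seq libraries of poly(A) RNA and Ribo-Seq libraries of ribosome-protected fragments came from BJ fibroblasts in 5 states. The authors aligned reads with Bowtie (version not given in the sources used here) to 1 protein-coding transcript per gene of Ensembl release 65, kept unique hits and deposited FPKM values, floored at 1, in a table of 9699 transcripts with 12 columns in which replicates had been combined. RNA FPKM was taken over the transcript and Ribo-Seq FPKM over the coding sequence. Their notes name build hg19.

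Log2 ratios were computed without a pseudocount against the proliferating column of the same sequencing run, as in the study's methods, with TE as the difference of the Ribo-Seq and RNA logs. With 1 column per condition no test was made, and 2-fold changes were counted and set beside the share of all rows. The table gives no read counts, and the read totals that the study lists per library were not used, so the counting error behind each value was not estimated. The enzymes and the gene lists were chosen with earlier results of these data known. Named genes were the 9 enzymes with every value, list genes past 2-fold in quiescent RNA, and the 10 rows closest to the enzymes' median profile, and other list genes were named after their values were seen. A few genes of these lists are not reported here. Alternatives were a pseudocount of 1, the control of the other run, centring on the median, a 1.5-fold threshold, a minimum FPKM of 5 in both assays, and leaving out each enzyme. Promoters and motifs came from RefSeq (GRCh38.p14), matched by symbol. Scripts used Python 3.11.15 with pandas 2.3.3, numpy 2.4.6 and matplotlib 3.10.9 and were tested on simulated data.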

Additional observations from a re-analysis of the deposited data

How the results depend on the processing

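No paired analysis was possible because the table holds 1 column per condition, in which the authors had combined the numbered replicates, and no replicate could be left out for the same reason. In quiescence the RNA and Ribo-Seq counts of 8 of 9 enzymes kept within 1.5 times under all alternatives run. With a pseudocount of 1 the RNA counts past 2-fold became 1 in pre-senescence and 1 in senescence. Against the proliferating column of the other run the RNA count was 1 in pre-senescence and 4 in the library labelled transformed, whose median log2 RNA change became 0.97, the Ribo-Seq count there was 3, and the TE counts were 2 in senescence and 1 in the library labelled transformed. Centring on the median of all rows left 0 enzymes past 2-fold in pre-senescent TE. At 1.5-fold the RNA counts were 5 in pre-senescence, 5 in senescence and 5 in the library labelled transformed, the Ribo-Seq counts 5 in senescence and 4 in the library labelled transformed, and the TE counts 2 in quiescence, 4 in pre-senescence, 3 in senescence and 1 in the library labelled transformed. The share of all rows past 1.5-fold is not given here, so these counts show only how the threshold moved them. The cause of the changed counts was not tested. Of 120 log2 changes and medians, 45 moved by more than the spread between the proliferating columns under the control of the other run, 1 with the pseudocount (HMGCS1 RNA in quiescence, to 3.59) and 0 with the minimum FPKM of 5 (7263 rows, all 9 enzymes kept), and no value past 2-fold changed sign. Taking the control of the other run shifts every change of an enzyme by the gap between its own proliferating columns. The spread was computed from the same gaps, so the count of 45 restates them and is no separate check. Leaving out each enzyme kept the median quiescent RNA change between 2.30 and 2.52.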

Other observations

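Some genes that move cholesterol out of lysosomes or out of the cell had higher values in senescent than in proliferating cells. NPC1, the lysosomal cholesterol exporter, had 28.88 and 14.34 RNA FPKM in proliferating cells of runs 1 and 2, 48.51 in quiescent, 63.74 in pre-senescent and 48.85 in senescent cells, and 26.44 in the library labelled transformed. Its log2 change in senescence was 1.77 in RNA and 2.65 in Ribo-Seq, but its proliferating columns themselves differed by more than those of any of the 9 enzymes in RNA, as did those of ABCA1. ABCA1, which hands cholesterol to lipoproteins, had 1.37 and 4.09 RNA FPKM in proliferating cells, 17.17 in senescent cells and 11.42 in the library labelled transformed, with a senescent Ribo-Seq change of 3.10. NPC2, the soluble partner of NPC1, was at 0.77 in RNA and 1.28 in Ribo-Seq. Its proliferating columns, at 62.33 and 96.88 RNA FPKM, also differed by more than those of any of the 9 enzymes. CYP51A1 of the later sterol steps had a senescent log2 TE change of 0.84, with an RNA change of 0.40. These genes were picked after their values were seen, and no test was made.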
